A study of Mus musculus with 32 samples.

Results

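Otx2, Pou3f1 and Fgf5 are 3 genes that mark the formative state of the mouse epiblast, and they were taken by symbol from the 31053 genes that were counted. They were followed in E14 mouse embryonic stem cells, 1 line derived from the blastocyst, kept in N2B27 medium. The 2i groups had been kept with CHIR99021 at 3 uM, which inhibits GSK3, together with PD0325901 at 1 uM, which inhibits MEK. The 2iL groups had the cytokine LIF in addition. Cells were plated in 2i or 2iL and, a day later, all of these agents were taken away by a change to plain N2B27. Cells from 2iL were collected at 0, 24, 36, 48, 60, 72, 84 and 96 h. Collection from 2i was at 0, 12, 24, 36, 48, 60, 72 and 84 h, so the courses share 6 times after withdrawal. There were 2 libraries in each of the 16 groups. Replicate 2 of 2iL at 36 h held 7298 counts and was left out, which leaves 31 libraries and 1 library for 2iL at 36 h.

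Naive pluripotent cells do not specify a lineage at once when the inhibitors are removed, but pass through a formative state that resembles the epiblast just after implantation. Otx2 is a homeodomain transcription factor that opens enhancers used in that state, and Pou3f1 (also known as Oct6) is a POU-domain transcription factor that appears in it and is later used in neural and glial cells. Fgf5 encodes a secreted fibroblast growth factor whose transcript is a classic mark of the epiblast after implantation. MEK inhibition blocks the ERK kinase cascade that FGF receptors feed, and GSK3 inhibition stabilises beta-catenin.

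Positions are on mm10 (GRCm38), from GENCODE M21. Otx2 (ENSMUSG00000021848) lies on chromosome 14 from 48657677 to 48673819 on the minus strand, with 11 annotated transcripts and 10 distinct 3′ ends. Pou3f1 (ENSMUSG00000090125) lies on chromosome 4 from 124656807 to 124660655 on the plus strand and has 1 transcript of 1 exon. Fgf5 (ENSMUSG00000029337) lies on chromosome 5 from 98254184 to 98277030 on the plus strand, with 2 transcripts and 3 exons in the longest. Libraries were read near transcript 3′ ends, so isoforms of Otx2 were not told apart and levels are compared within a gene, never between genes. The antisense genes Otx2os1 and Gm2164, which share exon positions with Otx2 and Pou3f1, held 38 and 19 counts over all 31 libraries. Whether reads were assigned by strand is not given in the sources used here, so reads of these partners cannot be told from those of the genes.

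The 250 bases before the start are shown for Otx2 and Fgf5, for the starts whose window holds no exon. RefSeq (GRCm38.p6) gave windows for Otx2 and Fgf5, 2 of the 3 genes. Capitals mark the letters TATAAA, which are those of a TATA box; a match of letters is a description and not a site.
Otx2 start 1, chr14:48667645-48667894, minus strand: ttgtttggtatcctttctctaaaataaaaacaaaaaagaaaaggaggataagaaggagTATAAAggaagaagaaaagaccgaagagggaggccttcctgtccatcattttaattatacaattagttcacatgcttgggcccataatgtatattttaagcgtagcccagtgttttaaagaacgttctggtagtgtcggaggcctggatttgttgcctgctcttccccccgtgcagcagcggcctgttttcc
Fgf5, chr5:98253934-98254183, plus strand: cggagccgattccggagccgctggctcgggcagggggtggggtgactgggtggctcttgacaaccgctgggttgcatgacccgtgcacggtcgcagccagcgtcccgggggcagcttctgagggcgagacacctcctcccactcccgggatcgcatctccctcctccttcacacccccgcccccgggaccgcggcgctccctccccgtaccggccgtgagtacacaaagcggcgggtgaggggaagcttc
The Otx2 window lies inside the annotated span of Otx2, outside its exons, and the Fgf5 window lies directly upstream of Fgf5. Otx2 has 4 starts in the table, and the other 3 windows overlap Otx2 exons. The Otx2 window was 42% G and C with 6 CpG, and that of Fgf5 70.8% with 24 CpG, against medians of 52.4% and 6 over 32851 promoter windows of the same length. Both strands were searched for GGATTA (bound by OTX factors), TGCAAAT (part of the octamer bound by POU factors), CTTTGA (bound by TCF and LEF factors) and TATAAA, none of which contains another. TATAAA stands 192 bases before Otx2 start 1 and is found in 12.4% of all windows. GGATTA stands 211 bases before Otx2 start 3 and is found in 6.25% of all windows. The Fgf5 window held none of the 4, and TGCAAAT and CTTTGA, found in 3.56% and 13.8% of all windows, were in neither gene's windows.

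The 31 libraries held 1122648 to 3438514 counts (median 1980949), so that 3 counts, the floor used for a count of 0, equal 0.873 to 2.67 CPM (counts scaled to library size, with TMM factors). All 5 general pluripotency genes (Pou5f1, Sox2, Sall4, Utf1, Lin28a) were detected in every group, Utf1 being on the list of formative genes as well. In 4 groups a library stood further from its partner than in the others, and results were also computed without these libraries (replicate 1 of 2iL at 48 h and at 96 h, replicate 2 of 2iL at 84 h, and replicate 2 of 2i at 12 h). The labels do not say whether replicates were separate cultures, and the p-values therefore cover only the spread between these samples, which may be technical. Values after ± are the SD over n = 2 libraries for CPM. For log2 differences they are a standard error back-calculated from the difference and its edgeR test statistic, and intervals of log2 differences were built from it. Near the floor this standard error is not reliable. For the Fgf5 change from 0 h, 2iL course minus 2i course, it was 7.96 at 24 h, 0.11 at 36 h and 1.46 at 48 h. A gene is said to rise, fall or differ at an adjusted p under 0.05 in edgeR over 12556 tested genes, which included all 3. In bulk RNA, fewer cells with a transcript and less of it per cell cannot be told apart.

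Before withdrawal, Otx2 was already higher in 2i than in 2iL, while Pou3f1 and Fgf5 were close to the floor in both media. Otx2 stood at 43.1 and 53.0 CPM in the 2iL libraries and at 117 and 130 CPM in the 2i libraries. The groups did not overlap, and the log2 difference was 1.37 ± 0.16 (adjusted p = 4.2e-07). Pou3f1 was at 1.66 and 2.65 CPM in 2iL, from 4 and 6 counts, and at 3.96 and 8.76 CPM in 2i, from 10 and 16 counts. The groups were separate but low, and the difference of 1.47 ± 0.47 lay at the threshold (adjusted p = 0.0468). That call ended without replicate 2 of 2i at 0 h (0.87, adjusted p = 0.569), without replicate 1 of 2iL at 0 h (1.17, adjusted p = 0.373), without replicate 2 of 2iL at 0 h (1.80, adjusted p = 0.111), and in DESeq2 (1.48, adjusted p = 0.110). Fgf5 had 0 counts in both 2iL libraries and 1 and 2 counts in the 2i libraries (adjusted p = 0.216), too few to compare at this depth. Over all genes tested, 3.75% were higher in 2i.

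In the 2i course all 3 genes rose by 12 h, the first time analysed, and the highest mean of Otx2 came before those of the other genes. Otx2 was at 346 and 328 CPM at 12 h, at 494 and 446 at 24 h, and at 429 and 420 at 36 h. Both libraries of each of these times lay far above the 117 to 130 CPM at 0 h, and the highest mean, 470 ± 33.4 CPM, was that of 24 h. The rise to 12 h was 1.44 ± 0.15 (adjusted p = 5.3e-08), and that from 12 to 24 h a further 0.48 ± 0.14 (adjusted p = 0.0332). The latter call ended without any 1 of the 4 libraries of those times (0.40 to 0.53), with DESeq2 scaling (0.43, adjusted p = 0.0612), with all 32 libraries (0.53, adjusted p = 0.0653) and with no filter on low counts (0.50, adjusted p = 0.0819).

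Pou3f1 climbed from near the floor to its highest mean at 36 h. It was at 92.9 and 66.4 CPM at 12 h, at 424 and 369 at 24 h, at 510 and 554 at 36 h and at 512 and 521 at 48 h. The 12 h libraries were both above the 0 h libraries and below those of 24 h, whereas the 36 h and 48 h libraries overlapped. The rise was 3.72 ± 0.28 at 12 h (adjusted p = 4.4e-11) and a further 2.30 ± 0.19 from 12 to 24 h (adjusted p = 1.8e-09). Against 0 h the difference was 6.44 ± 0.26 at 36 h (adjusted p = 8.0e-18).

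Fgf5 also had its highest mean at 36 h, on low counts. It was at 8.20 and 10.7 CPM at 12 h, at 30.8 and 33.2 at 24 h, at 52.3 and 45.4 at 36 h and at 45.7 and 50.02 at 48 h. Each group up to 36 h lay above the one before it, and 36 h and 48 h overlapped. The 2i libraries at 0 h held 3 counts together, so the change is given as a ratio of counts with its 95% counting interval. It was 13.4 (4.05 to 69.8) at 12 h, 46.7 (15.7 to 229) at 24 h and 71.5 (24.0 to 351) at 36 h. In edgeR the adjusted p was 0.00039 at 12 h, and the step from 12 to 24 h was 1.78 ± 0.35 (adjusted p = 0.0011).

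Without the 4 libraries that stand apart, replicate 2 of 2i at 12 h among them, the rises to 12 h were 1.47 for Otx2 and 3.94 for Pou3f1, and Fgf5 kept its call (adjusted p = 0.00074). All 3 genes were thus among the 5.42% of genes that rose at 12 h, and among the 4.44% that rose from 12 to 24 h. Against 0 h, 8.47%, 8.71%, 10.2%, 12.4%, 14.1% and 16.6% of genes were higher at 24, 36, 48, 60, 72 and 84 h. Pou3f1 was higher than at 0 h at all 7 times, Otx2 from 12 to 48 h and Fgf5 from 12 to 72 h. The Fgf5 call at 72 h (adjusted p = 0.0117) ended without replicate 1 of 2i at 0 h (adjusted p = 0.154) or at 72 h (adjusted p = 0.190).

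**Figure D1:**
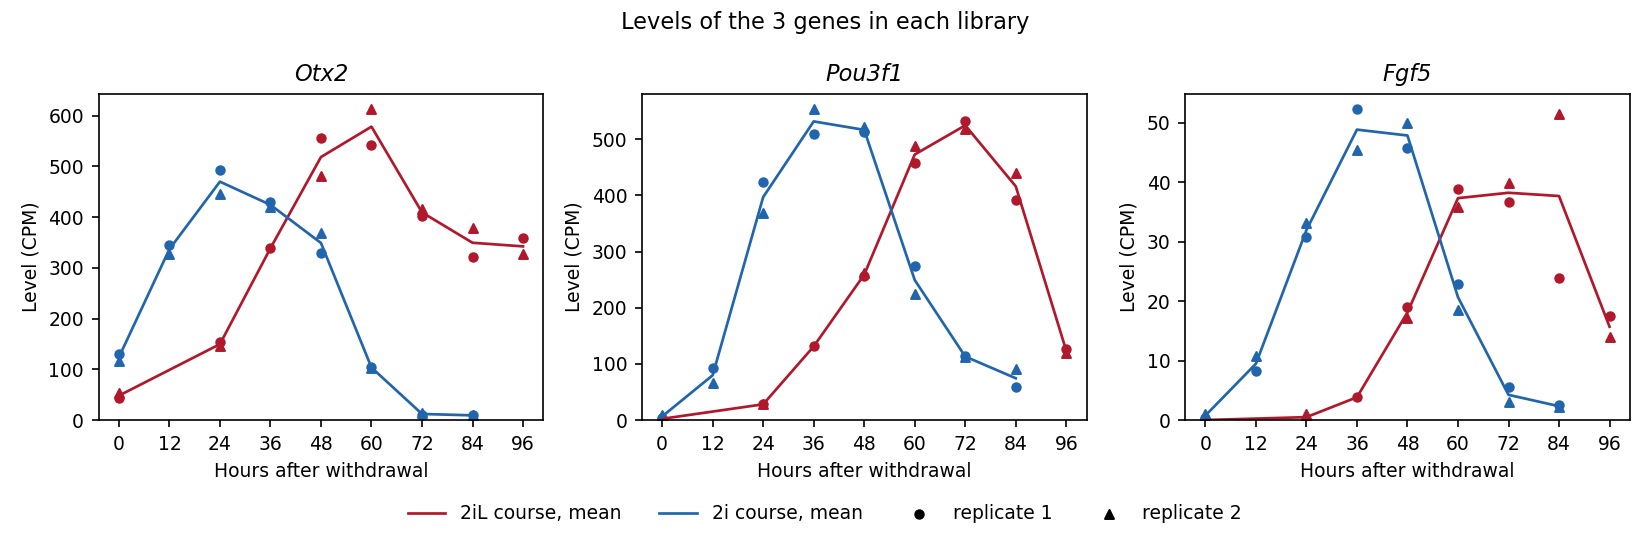
Level of Otx2, Pou3f1 and Fgf5 in CPM (y axis) against hours after withdrawal (x axis), for the 2i course in blue and the 2iL course in red; points are libraries and lines join means over the libraries of a time. Otx2 is highest at 24 h in the 2i course and at 60 h in the 2iL course, and the 2 Fgf5 libraries of 2iL at 84 h lie apart, at 23.9 and 51.5 CPM.

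The steps down that were called in the 2i course came between 48 and 72 h, and Otx2 ended below its level at the start. The mean of Otx2 was already lower after 24 h, going from 470 CPM at 24 h to 424 at 36 h and 349 at 48 h. The libraries of these times did not overlap. The steps of -0.15 ± 0.14 and -0.28 ± 0.14 were not called (adjusted p = 0.852 and 0.448 in edgeR), and 48 h was not tested against 24 h. Otx2 dropped from 330 and 368 CPM at 48 h to 104 and 103 at 60 h, 9.81 and 14.1 at 72 h and 9.43 and 9.08 at 84 h. The libraries of 72 h and 84 h were all under those of 0 h. The log2 difference from 0 h was -3.39 ± 0.21 at 72 h (adjusted p = 8.8e-14) and -3.73 ± 0.21 at 84 h (adjusted p = 8.8e-15), and 14.1% and 16.6% of genes were lower than at 0 h at these times.

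Pou3f1 also fell but stayed above its start. It was at 274 and 225 CPM at 60 h, at 113 in both libraries at 72 h, and at 58.5 and 90.3 at 84 h. Every one of these was above the 3.96 and 8.76 CPM of 0 h, and the difference from 0 h was still 4.21 ± 0.27 at 72 h (adjusted p = 1.9e-13) and 3.62 ± 0.27 at 84 h (adjusted p = 7.2e-12). Otx2 and Pou3f1, both epiblast transcription factors, thus stood on opposite sides of their 0 h levels at the end of this course.

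Fgf5 returned nearly to the floor. It was at 22.9 and 18.4 CPM at 60 h, at 5.52 and 2.97 at 72 h, and at 2.52 and 2.14 at 84 h, the last from 4 counts in each library. These ranges do not overlap from one time to the next. At 84 h its ratio to 0 h was 3.35 (0.805 to 19.6), an interval that includes no change, and the adjusted p was 0.136.

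From 48 to 84 h in the 2i course the log2 change was -5.23 ± 0.21 for Otx2 (adjusted p = 1.1e-17), -4.34 ± 0.41 for Fgf5 (adjusted p = 5.2e-09) and -2.79 ± 0.19 for Pou3f1 (adjusted p = 3.8e-12). All 3 were among the 8.96% of genes that fell over that span. The single step from 48 to 60 h, in which 0.438% of genes fell, was -1.75 ± 0.15 for Otx2, -1.05 ± 0.18 for Pou3f1 and -1.21 ± 0.28 for Fgf5 (adjusted p = 2.0e-08, 9.0e-04 and 0.0234). For Fgf5 this call ended without any 1 of the 4 libraries of those times (-1.38 to -1.06) and in DESeq2 (adjusted p = 0.0595), and for Pou3f1 without replicate 2 of 2i at 60 h (-0.91, adjusted p = 0.0713). From 60 to 72 h, when 0.804% of genes fell, the steps were -3.13 ± 0.21, -1.14 ± 0.19 and -2.24 ± 0.41 (adjusted p = 2.7e-11, 4.0e-04 and 0.0022). For Fgf5 that call ended without replicate 1 of 2i at 60 h (-2.04, adjusted p = 0.0538) or replicate 2 of 2i at 72 h (-1.88, adjusted p = 0.107).

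In the 2iL course Otx2 again had its highest mean before the other genes. It was at 153 and 146 CPM at 24 h, at 339 in the 1 library of 36 h, at 556 and 481 at 48 h and at 543 and 614 at 60 h. Every library after 0 h lay above the 43.1 and 53.0 CPM of 0 h, and the libraries of 48 h and 60 h overlapped. The rise was 1.64 ± 0.17 at 24 h (adjusted p = 2.1e-08) and 3.59 ± 0.16 at 60 h (adjusted p = 9.5e-17), the time of the highest mean, 579 ± 49.7 CPM. Otx2 then stood at 403 and 416 CPM at 72 h, 321 and 378 at 84 h and 358 and 327 at 96 h. The 72 h libraries lay above those of 84 h and 96 h, which overlapped, and the step from 84 to 96 h was -0.03 (95% interval -0.33 to 0.26).

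Pou3f1 rose up to 72 h in this course. It was at 27.7 and 28.2 CPM at 24 h, 131 at 36 h, 256 and 262 at 48 h, 457 and 489 at 60 h and 532 and 517 at 72 h. Each time lay wholly above the one before it up to 72 h, the time of the highest mean. The rise was 3.67 ± 0.38 at 24 h (adjusted p = 3.1e-08) and 7.90 ± 0.29 at 72 h (adjusted p = 8.7e-19). Pou3f1 was at 391 and 441 CPM at 84 h and then dropped to 127 and 120 at 96 h, a fall of 1.76 ± 0.18 on the log2 scale (adjusted p = 4.9e-07).

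Fgf5 was first called at 36 h in this course, 12 h after the other genes. Its counts were 0 and 0 at 0 h, 0 and 1 at 24 h and 10 in the 1 library of 36 h. It was then at 19.1 and 17.2 CPM at 48 h, 38.9 and 35.8 at 60 h, 36.6 and 39.9 at 72 h, 23.9 and 51.5 at 84 h and 17.5 and 13.95 at 96 h. The 60, 72 and 84 h libraries overlapped, and those of 96 h were lower than all of them. Against the floor of 3 counts over the 0 h libraries, Fgf5 was at least 5.97-fold higher at 36 h, 28.4-fold at 48 h and 59.3-fold at 72 h. Adjusted p was 0.354 at 24 h, where 1 count cannot show a change, and 0.0019 at 36 h. The fall from 84 to 96 h was 1.28 ± 0.30 on the log2 scale (adjusted p = 0.0107). It was 0.61 (adjusted p = 0.395) without replicate 2 of 2iL at 84 h, 1.11 (adjusted p = 0.117) without replicate 2 of 2iL at 96 h and 0.75 (adjusted p = 0.324) without the libraries that stand apart, and it also missed the threshold when the 2iL course was fitted alone (adjusted p = 0.0931).

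At 24 h of the 2iL course 5.65% of genes were higher than at 0 h, Otx2 and Pou3f1 among them, and at 36 h 5.56%, all 3 among them. The 3 were also higher at 48, 60, 72, 84 and 96 h, when 14.7%, 13.8%, 14.6%, 17.6% and 19.4% of genes were. Of the steps between sampled times, Otx2 and Pou3f1 rose from 24 to 36 h (1.18 ± 0.18 and 2.23 ± 0.25, adjusted p = 5.8e-04 and 1.1e-05), when 0.167% of genes did. From 36 to 48 h, when 0.462% of genes rose, Pou3f1 rose by 0.98 ± 0.23 and Fgf5 by 2.23 ± 0.48 (adjusted p = 0.0249 and 0.0150), and both calls ended without replicate 1 of 2iL at 48 h (adjusted p = 0.0548 and 0.0572) and when the 2iL course was fitted alone (adjusted p = 0.0640 and 0.140). From 48 to 60 h, when 0.51% of genes rose, Pou3f1 rose by 0.87 ± 0.17 (adjusted p = 0.0090). This call ended without replicate 1 of 2iL at 48 h (0.85, adjusted p = 0.0804), without either library of 60 h (0.80 to 0.89) and when the 2iL course was fitted alone (0.87, adjusted p = 0.0639). From 84 to 96 h, when 2.56% of genes fell, Pou3f1 and Fgf5 fell as given above.

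Scaled to the highest mean of its own course, each gene peaked 36 h later after 2iL than after 2i. The highest means were those of 24 h (2i) and 60 h (2iL) for Otx2, and of 36 h and 72 h for both Pou3f1 and Fgf5. These hours are those of the highest means, which were not all told from the neighbouring times. In the 2i course the step from 24 to 36 h was -0.15 ± 0.14 for Otx2, 0.42 ± 0.17 for Pou3f1 and 0.61 ± 0.27 for Fgf5 (adjusted p = 0.852, 0.359 and 0.420). In the 2iL course the step from 60 to 72 h was -0.50 ± 0.14, 0.15 ± 0.17 and 0.03 ± 0.26 (adjusted p = 0.0672, 0.785 and 0.987). Without the 4 libraries that stand apart that Otx2 step was called, at -0.49 (adjusted p = 0.0036). The step of Otx2 from 48 to 60 h of the 2iL course was 0.16 ± 0.14 (adjusted p = 0.714). Times 12 h apart limit how exactly a delay can be read, and 2iL at 12 h and 2i at 96 h were not analysed here. The level first reached 50% of the peak at 12 h (2i) and 36 h (2iL) for Otx2, and at 24 h and 60 h for Pou3f1 and Fgf5. At 48 h of the 2iL course Pou3f1 and Fgf5 were just under it, at 49.3% and 47.4%. After the peak, each gene was under 50% of it from 60 h on in the 2i course. In the 2iL course Pou3f1 and Fgf5 came under 50% at 96 h, at 23.5% and 41.1% of their peaks, and Otx2 was still at 59.2%. At the last time of the 2i course, 84 h, Otx2 was at 1.97%, Pou3f1 at 13.99% and Fgf5 at 4.76% of the peak.

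**Figure D2:**
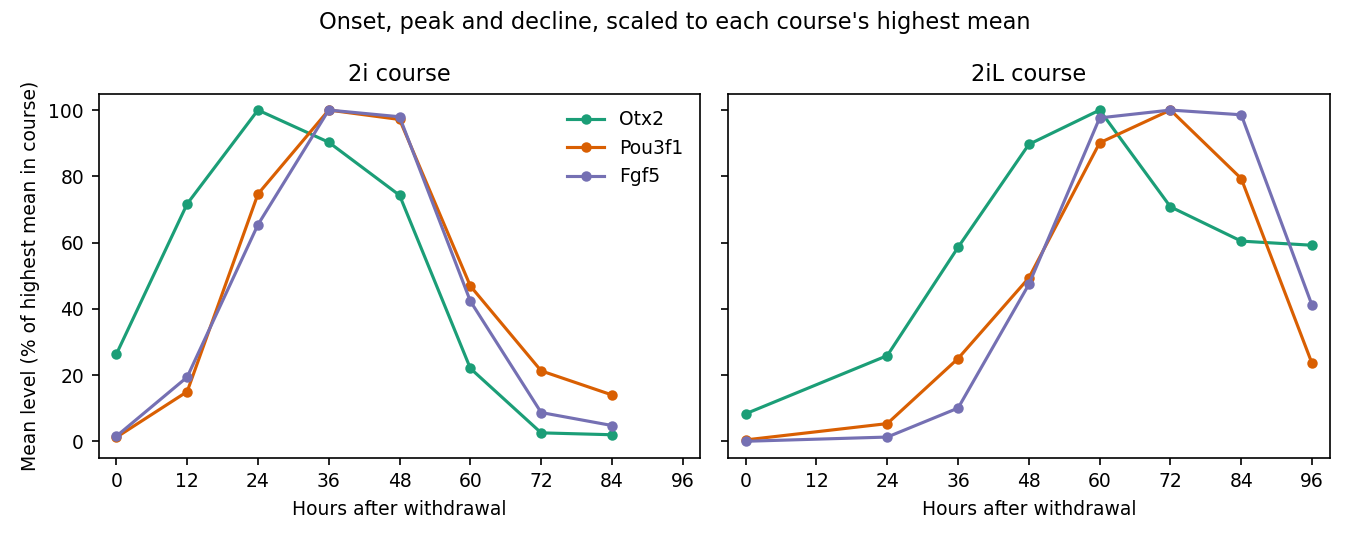
Mean level of each gene as a percentage of its highest mean in the same course (y axis) against hours after withdrawal (x axis), with the 2i course on the left and the 2iL course on the right. The Otx2 curve is ahead of the other 2 on the way up in both courses, and it ends lowest in the 2i course (1.97%) but highest in the 2iL course (59.2%).

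At the hours of the highest means, the libraries overlapped between the courses for Pou3f1, and not for the other 2 genes. Those of the highest mean spanned 517 to 532 CPM (2iL) and 510 to 554 (2i) for Pou3f1. They spanned 543 to 614 and 446 to 494 CPM for Otx2, and 36.6 to 39.9 and 45.4 to 52.3 CPM for Fgf5. These times were picked for their height, so no test is given. With 2 libraries at each time, the overlap also depends on the hour picked. Otx2 in 2iL at 48 h, at 481 to 556 CPM, overlapped its 2i libraries of 24 h. Fgf5 in 2iL at 84 h, at 23.9 to 51.5 CPM, overlapped its 2i libraries of 36 h. With all 16 groups in order of level, 6 of the 15 neighbouring pairs overlapped in their libraries for Otx2, 5 for Pou3f1 and 8 for Fgf5. For Otx2 the groups from 2iL at 84 h through 2i at 48 h, 2iL at 96 h and 2iL at 36 h to 2i at 12 h, with means falling from 349.6 to 337 CPM, each overlapped the next.

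At the same hour the courses changed places, first for Otx2. At 24 h all 3 genes were lower in the 2iL course, by 1.65 ± 0.15 for Otx2, 3.82 ± 0.22 for Pou3f1 and 6.02 ± 0.65 for Fgf5 on the log2 scale (adjusted p = 2.7e-09, 6.7e-13 and 8.3e-08). Fgf5 then had 156 counts in the 2i course and 1 in the 2iL course, a ratio of 74.8 with a counting interval of 13.2 to 2972. This interval is wider than the ± value of Fgf5 at 24 h implies, and that ± value is not reliable at 1 count. At 36 h the differences were -0.33 (95% interval -0.69 to 0.04) for Otx2, -2.02 ± 0.24 for Pou3f1 and -3.66 ± 0.45 for Fgf5, with 1 library in 2iL. Of all genes 5.18% were lower in the 2iL course at 24 h and 3.31% at 36 h. At 48 h Otx2 was higher in the 2iL course, at 556 and 481 against 330 and 368 CPM (0.57 ± 0.14, adjusted p = 0.0054). Pou3f1 (-0.997 ± 0.174) and Fgf5 (-1.40 ± 0.27) were still lower, and 17.3% of genes differed in either direction. The Otx2 call at 48 h ended without replicate 1 of 2iL at 48 h (0.46, adjusted p = 0.0788) or replicate 1 of 2i at 48 h (0.49, adjusted p = 0.0862), and held without the libraries that stand apart (0.45, adjusted p = 0.0185).

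From 60 h on all 3 genes were higher in the 2iL course. At 60 h the differences were 2.48 ± 0.15 for Otx2, 0.92 ± 0.17 for Pou3f1 and 0.85 ± 0.28 for Fgf5 (adjusted p = 6.5e-13, 3.4e-04 and 0.0343), beside 7.88% of genes that were higher. The Fgf5 call at 60 h ended without any 1 of its 4 libraries (0.70 to 1.02), with DESeq2 scaling (0.80, adjusted p = 0.0501) and in DESeq2 (0.80, adjusted p = 0.126). At 72 h they were 5.11 ± 0.20, 2.21 ± 0.19 and 3.12 ± 0.39 (adjusted p = 1.3e-17, 4.2e-10 and 9.8e-07), beside 6.26% of genes. At 84 h they were 5.23 ± 0.21, 2.47 ± 0.19 and 3.99 ± 0.42 (adjusted p = 1.0e-17, 6.7e-11 and 5.9e-08), beside 8.45% of genes. Without the libraries that stand apart, the 84 h differences were 5.11, 2.38 and 3.33.

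**Figure D3:**
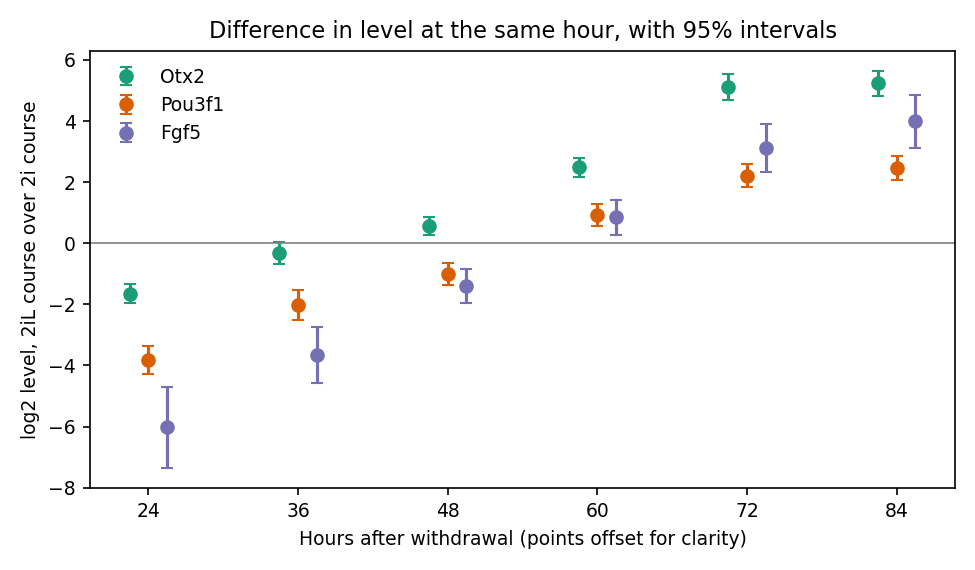
Log2 level in the 2iL course over the 2i course at the 6 shared times (y axis) against hours after withdrawal (x axis), as points with 95% intervals for the 3 genes. Otx2 is above 0 from 48 h on, while Pou3f1 and Fgf5 are below 0 until 48 h and above it from 60 h. Intervals are built from the back-calculated standard errors, and that of Fgf5 at 24 h, with 1 count in the 2iL course, is narrower than its counting interval.

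The change from 0 h also differed between the courses. The change in 2iL minus that in 2i was 1.94 ± 0.22 at 48 h, 3.85 ± 0.22 at 60 h, 6.48 ± 0.26 at 72 h and 6.60 ± 0.26 at 84 h for Otx2. For Pou3f1 it was -2.35 ± 0.60 at 24 h, 2.39 ± 0.50 at 60 h, 3.68 ± 0.50 at 72 h and 3.95 ± 0.50 at 84 h. The Pou3f1 value at 24 h (adjusted p = 0.0239) rests on low counts at 0 h, and its call ended without either library of 2iL at 0 h (-2.65 and -2.03), without replicate 1 of 2i at 0 h (-1.84) or without replicate 1 of 2i at 24 h (-2.23). That at 60 h ended without replicate 2 of 2i at 0 h (1.79, adjusted p = 0.0710). Of all genes 3.07%, 3.13%, 9.18%, 10.3%, 9.76% and 11.3% differed in this way at 24, 36, 48, 60, 72 and 84 h. Both courses have their own 0 h libraries, and each set enters every value of its course.

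Over the same span of 48 to 84 h in which all 3 genes fell in the 2i course, they moved apart in the 2iL course. Otx2 fell by 0.57 ± 0.14 on the log2 scale (adjusted p = 0.0042), Pou3f1 rose by 0.68 ± 0.17 (adjusted p = 0.0045) and Fgf5 by 1.05 ± 0.28 (adjusted p = 0.0069), beside 22.5% of genes called in either direction. The Otx2 call ended without replicate 1 of 2iL at 84 h (-0.46, adjusted p = 0.0605). That of Fgf5 ended without replicate 2 of 2iL at 84 h (0.38, adjusted p = 0.426) and without the 4 libraries that stand apart (0.51, adjusted p = 0.346). Pou3f1 kept its call in both cases, at 0.62 (adjusted p = 0.0124) without the libraries that stand apart.

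Over all 16 groups and within the 2i course, the most similar profiles of the 3 genes were those of Pou3f1 and Fgf5, and within the 2iL course those of Otx2 and Pou3f1. Over the 16 group means of log2 CPM, Pearson's r was 0.930 for Pou3f1 with Fgf5, 0.624 for Otx2 with Fgf5 and 0.499 for Otx2 with Pou3f1. Within the 8 groups of the 2iL course these were 0.931, 0.866 and 0.962, and within those of the 2i course 0.928, 0.672 and 0.367. The points are successive times of 2 courses and are not independent, each mean of a gene pair comes from the same libraries, and r is given as a description. Among 8242 genes with a mean log2 CPM of at least 3, the profile closest to Otx2 was that of Phc1, a Polycomb component (r = 0.962), followed by Rasgrp2, Bptf, Hdgf and Iqgap1. Closest to Pou3f1 was Zcchc3 (0.965), followed by Rapgef5, Lin28a, the RNA-binding protein that blocks let-7 maturation, Usp44 and Pim2. Closest to Fgf5 was Eif1ax (0.969), a translation initiation factor, followed by Pim2, a kinase, Slc5a5, Jph4 and Emb. Pim2 was thus among the 5 closest genes of both Pou3f1 and Fgf5.

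The other genes commonly assigned to the formative state, 13 in the list used here and all tested, mostly peaked later in the 2iL course than in the 2i course, by delays of various length. At 60 h of the 2iL course 13 of 13 had risen, as had 13.8% of all genes (median 3.47, against 0.00 over all genes). At 36 h of the 2i course 8 had risen, as had 8.71% of all genes (median 1.39, against -0.01). At that time 0 had fallen, beside 8.81% of all genes. These rises start from different levels. Before withdrawal 9 of the 13 were already higher in 2i than in 2iL, as were 3.75% of all genes, and 0 were lower (median 2.21, against 0.01). Of the 1004 genes called there in either direction, 471 were higher in 2i. From 48 to 84 h in the 2i course 10 fell and 1 rose, where 8.96% and 8.22% of all genes did. In the 2iL course 6 fell and 3 rose, where 10.6% and 11.9% did. The 1 that rose in 2i was not called without replicate 1 of 2i at 48 h, when 0 rose. The medians were -1.54 and -0.45, against 0.01 and 0.04 over all genes. The de novo DNA methyltransferase Dnmt3b had the peak times of Pou3f1 and Fgf5, 36 h (2i) and 72 h (2iL), and Dnmt3a those of Otx2. Dnmt3b fell by 3.57 ± 0.17 from 48 to 84 h in the 2i course (adjusted p = 1.2e-15). The methyltransferase cofactor Dnmt3l was earlier than any of the 3, with peaks at 12 h and 36 h, and Tead2, a partner of YAP, was highest at the last time of each course. Of the 13, 12 had their highest mean later in the 2iL course, 4 of them by 36 h, and Sox3 had it at 72 h in both. No share over all genes stands beside this count. The courses were also analysed at unlike times, with 12 h only in 2i and 96 h only in 2iL. Some highest means were nearly matched at another time. Sall2 was at 99.1% of its 2i peak at 84 h, and Foxd3 at 98.2% of its 2iL peak at 60 h. For Tead2 in both courses, and for Zic2 in the 2iL course, the highest mean was that of the last time analysed, so the hours between their highest means are set by where sampling stopped.

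**Figure D4:**
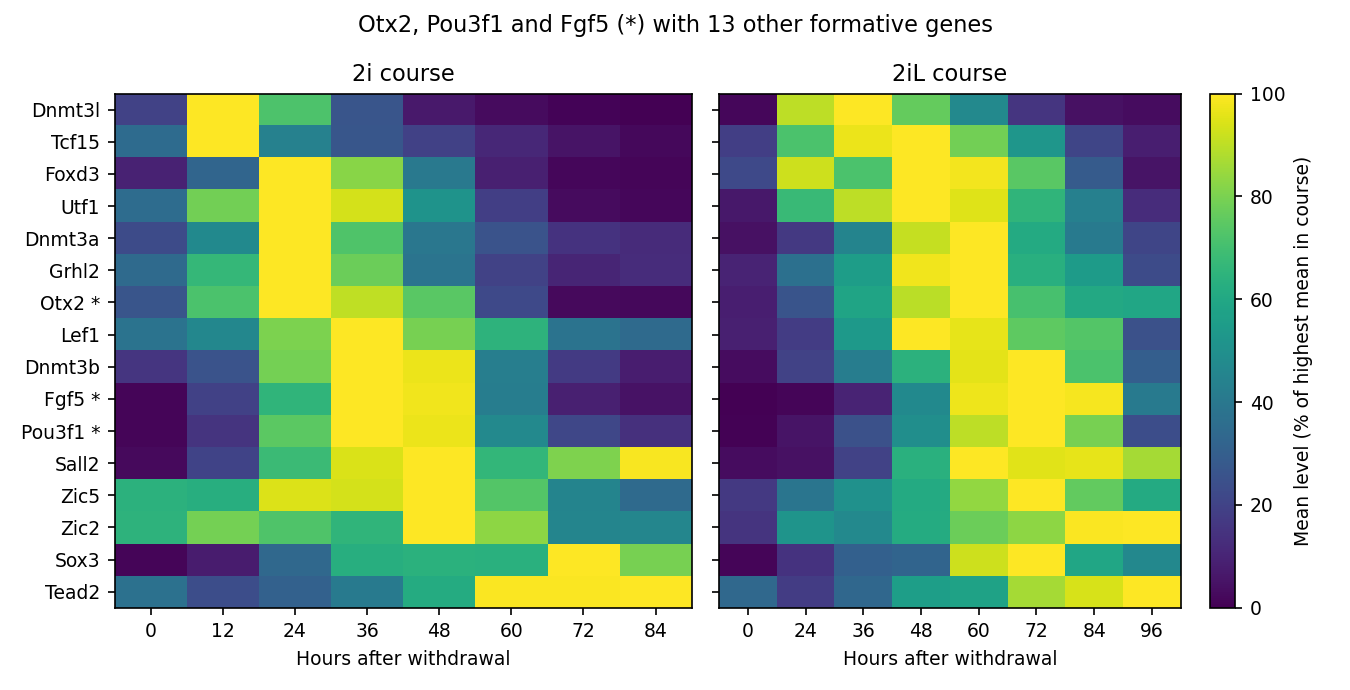
Mean level of the 3 genes (starred) and 13 other formative genes as a percentage of each gene's highest mean in the course (colour), by hours after withdrawal (columns), with the 2i course on the left and the 2iL course on the right and genes in order of their peak time in the 2i course. Otx2 peaks beside Dnmt3a at 24 h of the 2i course, and Pou3f1 and Fgf5 beside Dnmt3b at 36 h; Sox3 and Tead2 peak at 72 h and 84 h.

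Of 7 relatives of the 3 genes, Otx1, Crx and Fgf6 were too low to be tested, as counts were at or near the floor in every group. Fgf4, a growth factor that embryonic stem cells make themselves, was lower at 60 h of the 2iL course and at 36 h of the 2i course than before withdrawal. It was at 208 ± 37.2 CPM at 0 h and 93.0 ± 10.8 at 60 h of the 2iL course, a fall of 1.16 ± 0.22 on the log2 scale (adjusted p = 1.6e-04). In the 2i course it was at 148 ± 10.3 CPM at 0 h, 254 ± 58.2 at 12 h and 78.3 ± 7.18 at 36 h, a fall of 0.91 ± 0.23 from 0 to 36 h (adjusted p = 0.0053). From 48 to 84 h it fell by 3.10 ± 0.40 (adjusted p = 1.2e-06). Pou3f2, a POU factor of neural progenitors, was at 1.26 ± 0.87 CPM at 48 h of the 2i course and at 23.3 ± 2.67 at 84 h, a rise of 4.05 ± 0.69 (adjusted p = 9.1e-05) over the span in which Pou3f1 fell.

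Of the 11 tested FGF receptors and genes of the ERK response, 5 had risen and 0 fallen at 60 h of the 2iL course, and 3 had risen and 1 fallen at 36 h of the 2i course. Of all genes, 13.8% were higher in the first comparison, and 8.71% higher and 8.81% lower in the second. In the first, 1731 of the 3474 genes called in either direction were higher. The median differences were 0.88 and 0.61, against 0.00 and -0.01 over all genes. The first count was 3 without replicate 1 of 2iL at 0 h or at 60 h. The others became 5 risen and 2 fallen without the 4 libraries that stand apart and when the 2i course was fitted alone, and 0 had fallen without replicate 1 of 2i at 0 h or replicate 2 at 36 h. At 12 h of the 2i course 2 of the 11 had risen and 4 fallen, beside 5.42% and 5.36% of all genes. The 2 became 1 without replicate 1 of 2i at 0 h or replicate 2 of 2i at 12 h, and the 4 became 1 or 2 without any 1 of the 4 libraries of these times. Spry4, a feedback inhibitor of receptor tyrosine kinases, rose by 4.45 ± 0.69 at 60 h of the 2iL course and 3.65 ± 0.69 at 36 h of the 2i course. Dusp6, a phosphatase of ERK, rose by 2.51 ± 0.52 and 2.59 ± 0.52 in the same comparisons. Etv5, on the same list, was at 211 ± 16.5 CPM at 0 h, 233 ± 1.06 at 60 h and 107 ± 4.39 at 84 h of the 2iL course. In the 2i course Etv5 was at 242 ± 11.8 CPM at 0 h, 180 ± 19.0 at 36 h and 25.8 ± 7.05 at 84 h. Fgfr1, a receptor for FGF ligands, was at 37.4 ± 0.735 CPM at 0 h and 90.2 ± 3.85 at 84 h of the 2iL course. In the 2i course Fgfr1 was at 68.2 ± 5.91 and 107 ± 15.5 CPM at these times, and at 41.6 ± 4.70 at 12 h.

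Markers of other cells changed over the courses, and not only during the decline of the 3 genes. Over 9 early neural genes, all but Six3 detected in 2i at 84 h, the summed level was 95.4 to 109 CPM in the 2i libraries at 0 h, with Neurog2 at 0, and 612 to 699.9 at 84 h. In the 2iL libraries it was 146 to 153 CPM at 0 h, with Neurog2 and Six3 at 0, and 387 to 514 at 96 h, with Neurog2 at 0. The sum was already 221 to 250 CPM at 48 h of the 2i course and 294 to 383 at 72 h of the 2iL course. Neurog2 was at 0 at both, and Pou3f1 and Fgf5 were then at or near their highest means. Sox1, a first marker of neuroectoderm, was at 202 ± 19.7 CPM at 84 h of the 2i course and 31.99 ± 4.86 at 84 h of the 2iL course. Tubb3, a tubulin of neurons, went the other way, at 39.1 ± 6.12 CPM at 84 h of the 2i course and 261 ± 86.0 at 84 h of the 2iL course. Most of the sum at 48 h of 2i and 72 h of 2iL was Tubb3, at 137 ± 21.3 and 218 ± 62.6 CPM. Sox1 was then at 11.7 ± 0.723 and 7.69 ± 2.93 CPM. Tubb3 was already at 65.2 ± 15.5 CPM at 0 h of the 2i course and 118 ± 7.82 at 0 h of the 2iL course. At 84 h of the 2i course Hes5, on the same list, was at 261 ± 60.6 CPM. From 48 to 84 h of the 2i course 4 of the 8 tested early neural genes rose, Sox1 among them, and 1, Tubb3, fell, beside 8.22% and 8.96% of all genes; the number that fell was 2 without the 4 libraries that stand apart and when the 2i course was fitted alone. Over 7 primitive streak genes the sum in the 2i course was 26.1 to 28.5 CPM at 0 h, with Gsc at 0, 2.93 to 6.59 from 12 to 36 h, 48.2 to 57.0 at 72 h and 30.2 to 34.7 at 84 h. It was 15.8 to 21.2 CPM at 0 h and 2.15 to 9.34 at 84 h of the 2iL course with Evx1, Fgf8 and Mesp1 at 0. At 96 h of that course the sum was 5.43 to 7.76 CPM, with Evx1 at 0. Over 10 naive factors the sum fell from 2907 to 2959 CPM at 0 h of the 2iL course to 160 to 163 at 60 h, and from 1379 to 1508 at 0 h of the 2i course to 76.2 to 76.5 at 36 h. In the 2i course it then stood at 128 to 156 CPM at 60 h and 63.1 to 84.9 at 84 h. Prdm14 was at 0 at these 3 times of the 2i course. The part of these markers in the decline of the 3 genes was not tested. Primitive endoderm and fibroblast sums stayed at or under 17.4 and 27.8 CPM in every library, and trophectoderm sums were highest at 0 h, at 168 to 236 CPM. Most of that 0 h sum was 1 gene, Tfap2c, at 167 ± 2.65 CPM in 2iL and 209 ± 20.7 in 2i. In the 2i course the trophectoderm sum went from 18.2 to 19.5 CPM at 24 h to 66.8 to 88.7 at 84 h. At 84 h Tfap2c was at 15.8 ± 4.27, Cdx2 at 26.8 ± 8.39 and Krt18 at 21.7 ± 4.94 CPM.

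Neighbours on the chromosome were also followed. Within 100 kb of Pou3f1, 4 genes were tested, and at 36 h of the 2i course, where Pou3f1 had risen by 6.44, Utp11 had risen by 0.69 ± 0.19 (adjusted p = 0.0089) and Fhl3 by 1.20 ± 0.41 (adjusted p = 0.0418), beside 8.71% of all genes. The Utp11 call ended without replicate 2 of 2i at 0 h (0.63, adjusted p = 0.0798) or replicate 1 at 36 h (0.63, adjusted p = 0.0809). The Fhl3 call ended without any 1 of the 4 libraries of these times (0.91 to 1.63) and in DESeq2 (adjusted p = 0.0636). Sf3a3 and Inpp5b stood at 0.23 ± 0.16 and 0.84 ± 0.64 there (adjusted p = 0.375 and 0.418). At 60 h of the 2iL course, where 13.8% of genes had risen, Utp11 had risen by 0.59 ± 0.18 (adjusted p = 0.0148) and Sf3a3 by 0.42 ± 0.16 (adjusted p = 0.0458), and Fhl3 and Inpp5b were not called. There the Utp11 call ended without either library of 0 h (0.55 and 0.60), without replicate 1 of 2iL at 60 h (0.52) and with no filter on low counts (0.58, adjusted p = 0.0543). The Sf3a3 call ended without any 1 of the 4 libraries (0.37 to 0.45), with the DESeq2 scaling, in DESeq2, with all 32 libraries, with no filter and when the 2iL course was fitted alone (adjusted p = 0.0524 to 0.197). The 1 tested neighbour of Fgf5, Prdm8, and the 1 of Otx2, the long noncoding RNA 4930572G02Rik, held 60 and 105 counts over all libraries.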

How the data were processed

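RNA with poly(A) tails was read near transcript 3′ ends (NEGEDIA Digital mRNAseq, per the labels' protocols) in 32 libraries of E14 cells. The authors deposited whole-number counts of uniquely aligned reads per Ensembl gene, 1 file per library. Per the submitters' processing notes, bcl2fastq, STAR 2.6.0a, HTSeq and build mm10 were used; the annotation release and the strand setting are not given in the sources used here. In 31 libraries 23.8% to 55.6% of uniquely aligned reads lay outside genes or were ambiguous and were not used. This share was not even over time. In the 2i course it was 30.85% and 46.43% at 0 h, 33.63% and 25.07% at 24 h and 53.85% and 55.57% at 84 h. In the 2iL course it was 47.05% and 41.18% at 0 h, 31.03% and 34.56% at 60 h and 53.98% and 50.44% at 96 h. Its part in the changes of the 3 genes was not tested. Symbols came from GENCODE M21, which names 30934 of 31053 gene IDs.

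Groups and replicates follow the labels. One fit of 31 libraries with a coefficient per group (15 residual degrees of freedom) was made in edgeR 4.0.16 (R 4.3.3) by the quasi-likelihood test, after TMM scaling and filterByExpr (12556 genes), with Benjamini-Hochberg adjustment over all tested genes. The fit was tested on simulated counts for 24 against 0 h of the 2i course. It recovered 43% of 100 changes of 2-fold and 90% of 100 changes of 4-fold, with 7 false calls. A step of 2-fold or less that was not called may therefore have been missed, and so may some steps of up to 4-fold. The comparisons were 2i against 2iL at 0 h, each time against 0 h and against the time before it, 84 h against 48 h, and the courses against each other at 6 shared times. Counting intervals and the floor cover counting error only (95%, exact Clopper-Pearson). DESeq2 1.42.0, its scaling, no filter, all 32 libraries, each course alone, a replicate block and libraries left out were alternatives.

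The members, gene lists, motifs and tests were chosen with earlier results of these data known. Named genes are the members, list members chosen by role, neighbours within 100 kb and, for each member, the 5 genes with the highest correlation of group means (prior count 2). One gene of the early neural list is not reported here and was left out of its sums.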

Additional observations from a re-analysis of the deposited data

Results flagged for a closer look

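The change from 0 h differed between the courses, by a test of the difference itself, for 11 values. Each is the log2 change in the 2iL course minus that in the 2i course. For Otx2 it was 1.04 at 36 h, 1.94 at 48 h, 3.85 at 60 h, 6.48 at 72 h and 6.60 at 84 h. The 36 h value of Otx2 rests on 1 library of the 2iL course, and its call ended without replicate 1 of 2iL at 0 h (0.90, adjusted p = 0.0787), without replicate 1 of 2i at 0 h (0.96, adjusted p = 0.0636) and with all 32 libraries (0.89, adjusted p = 0.105). For Pou3f1 the difference was -2.35 at 24 h, 2.39 at 60 h, 3.68 at 72 h and 3.95 at 84 h. For Fgf5, which had no counts in 2iL at 0 h, only the adjusted p is given, 0.0111 at 72 h and 0.0044 at 84 h. Both Fgf5 calls ended without replicate 2 of 2i at 0 h, which held 2 of the 3 counts at 0 h (adjusted p = 0.127 and 0.0869).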

How the results depend on the processing

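Of 30 main values, computed again under 8 kinds of alternative, 26 kept their direction and their side of the threshold in all that applied; the fit of a course alone applied to 18 of the 30, as values between courses have none. The exceptions were Pou3f1 in 2i against 2iL, Fgf5 and Otx2 from 48 to 84 h of the 2iL course, and Otx2 between courses at 48 h. The Pou3f1 difference before withdrawal lost its call, at 1.46 with the DESeq2 scaling, 1.48 in DESeq2, 1.46 with all 32 libraries, 1.48 with no filter on low counts, 1.47 with a replicate block and 1.45 without the 4 libraries that stand apart, and ran from 0.87 to 1.99 with 1 library left out. With 1 library left out, the 48 to 84 h change in the 2iL course ran from 0.38 to 1.502 for Fgf5 and from -0.70 to -0.46 for Otx2, and the Otx2 difference at 48 h from 0.46 to 0.68. Without the 4 libraries that stand apart Fgf5 changed by 0.51 from 48 to 84 h. Small steps changed sign: the Otx2 step from 84 to 96 h was 0.0111 with the DESeq2 scaling, 0.0101 in DESeq2, 0.0045 with all 32 libraries and 0.0440 without the 4, and -0.14 to 0.11 with 1 library left out. The Fgf5 step from 72 to 84 h was 0.0197 with the DESeq2 scaling and -0.68 to 0.43 with 1 left out, that from 60 to 72 h -0.0279 to 0.0918, and that of the 2i course from 36 to 48 h -0.11 to 0.11. For Pou3f1 the step from 36 to 48 h of the 2i course ran from -0.0659 to 0.0326, and the difference in change at 48 h from -0.13 to 1.03. The uncalled difference of Fhl3 at 60 h of the 2iL course ran from -0.20 to 0.67. The cause of these changes was not tested, beyond the smaller number of samples when libraries are left out. Counts of called genes moved by over 1.5 times in several comparisons. With 1 library left out they went from 1004 to between 521 and 642 before withdrawal, from 1452 to 724 to 976 at 24 h and from 3474 to 2275 to 2514 at 60 h of the 2iL course, from 1353 to 609 to 874 at 12 h and from 2199 to 1281 to 1548 at 36 h of the 2i course, from 2157 to 1078 to 1295 for 84 against 48 h of the 2i course, and from 1331 to 718 to 1106 and 1536 to 725 to 973 between courses at 24 and 72 h. Without the 4 libraries they were 1681 before withdrawal, 2415 at 24 h of the 2iL course, and 2056 and 2420 between courses at 24 and 72 h. Fitted alone, the courses gave 912 genes at 24 h of 2iL and 2221 at 12 h of 2i. The same alternatives for gene lists, for the other named genes and for neighbours were chosen after seeing the data. The replicate block changed no other call of the 3 genes. Replicate numbers do not pair the libraries, since over 105 pairs of groups the correlation of deviations ran from -0.38 to 0.42 (median 0.006). The single library of 2iL at 36 h could not be left out.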
